A study of Mus musculus with 12 samples.

Results

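The mRNA levels of 10 genes that serve PPARγ signaling, fatty acid uptake, fatty acid binding and acylglycerol synthesis were examined in the liver of mice fed 4 diets. The genes were taken by their symbols from the 54532 genes of the deposited table, and they are *Pparg*, *Cd36*, *Slc27a4*, *Vldlr*, *Lpl*, *Fabp1*, *Fabp2*, *Fabp4*, *Mogat1* and *Dgat2*. All 10 reached a mean of 1 FPKM over the 12 mice, the minimum set for testing, and were thus among the 11083 genes tested. FPKM are fragments per kilobase of gene divided by a scaling total for each mouse, which gives a level per length. The RNA came from whole liver of male C57BL/6J mice, 3 per group, that received their diet for 26 weeks from 5 weeks of age. ND-fed mice ate a normal diet, control mice a high-fat diet (HFD), and HYA-treated and LA-treated mice the HFD with 1% HYA or 1% LA. LA is linoleic acid, a polyunsaturated fatty acid of edible oils, and HYA is a hydroxy fatty acid that lactic acid bacteria of the gut make from LA, so that HYA carries a hydroxyl group where LA has a double bond. Both compounds were given at the same dose and only together with the HFD.

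PPARγ is a nuclear receptor that binds fatty acids and their derivatives and acts on DNA as a partner of RXR. It is most abundant in adipose tissue, is low in normal liver, and is known to rise in fatty liver. There it drives genes that bring fatty acids into the hepatocyte (*Cd36*), carry them in the cytosol (*Fabp4*) and join them to glycerol (*Mogat1*). Fatty acids also reach the cell from lipoproteins, whose triglycerides are hydrolyzed by lipoprotein lipase (*Lpl*) and whose particles are bound by the VLDL receptor (*Vldlr*).

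The libraries held 17169064 to 25220880 fragments on genes, and the members held from 30 fragments (*Mogat1*, in an ND-fed mouse) to 103633 (*Fabp1*, in an HYA-treated mouse). The 7 hepatocyte markers examined were all tested and summed to between 27791 and 43715 FPKM, and the adipocyte genes *Adipoq*, *Lep*, *Plin1* and *Retn* lay below the minimum. In bulk tissue, fewer cells of a type and less RNA per cell cannot be told apart. Differences are given as log2 fold changes of FPKM + 1, with limma's standard error (SE) and Benjamini-Hochberg adjusted p over all genes tested. A gene passed at an adjusted p under 0.05. Scaling mattered for the whole table. The total behind the deposited values lay below the fragments on genes in every ND-fed mouse and above them in every control and LA-treated mouse. In HYA-treated mice it lay on either side. With the same genes scaled to the total of fragments on genes, the median log2 fold change of all genes moved from −0.04 to 0.11 between control and ND-fed mice, and from 0.02 to −0.06 between HYA-treated and control mice. Rescaling to TPM, which also brought the genes tested to 13588, gave 0.18 and −0.10.

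RefSeq promoter sequences (GRCm38.p6, the 250 bases before each annotated start) were at hand for 7 of the 10 genes, in 10 windows. *Lpl*, *Fabp4* and *Dgat2* are named only. Each window was searched on both strands for the response element of PPAR and RXR, a pair of half-sites 1 base apart (DR1, AGGTCANAGGTCA), and for the half-site AGGTCA alone, which is part of the DR1. Shown here are the windows of *Mogat1*, *Cd36* and *Fabp2*, which are among the members with the largest differences between diets, and of *Fabp1*, whose window held the closest match. Each is printed from its 5′ end on the strand of the gene and stops before the first base of any annotated exon of the 10 genes. Exons of other genes were not considered. Capitals mark a DR1 with at most 1 mismatch or a half-site.
Fabp1, chr6:71199629-71199826, plus strand: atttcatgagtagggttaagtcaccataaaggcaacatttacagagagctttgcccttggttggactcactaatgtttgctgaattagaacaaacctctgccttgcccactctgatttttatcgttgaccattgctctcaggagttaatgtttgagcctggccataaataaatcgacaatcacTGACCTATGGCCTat
Cd36, chr5:17835897-17836146, minus strand: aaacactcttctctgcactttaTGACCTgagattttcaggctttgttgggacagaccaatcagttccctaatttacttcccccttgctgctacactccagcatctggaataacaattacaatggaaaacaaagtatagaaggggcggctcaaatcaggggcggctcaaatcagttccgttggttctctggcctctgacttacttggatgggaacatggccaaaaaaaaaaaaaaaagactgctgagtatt
Mogat1, chr1:78510810-78510990, plus strand: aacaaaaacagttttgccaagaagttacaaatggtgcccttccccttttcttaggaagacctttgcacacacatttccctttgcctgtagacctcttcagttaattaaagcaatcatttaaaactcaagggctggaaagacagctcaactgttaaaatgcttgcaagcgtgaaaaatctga
Fabp2, chr3:122894822-122895071, plus strand: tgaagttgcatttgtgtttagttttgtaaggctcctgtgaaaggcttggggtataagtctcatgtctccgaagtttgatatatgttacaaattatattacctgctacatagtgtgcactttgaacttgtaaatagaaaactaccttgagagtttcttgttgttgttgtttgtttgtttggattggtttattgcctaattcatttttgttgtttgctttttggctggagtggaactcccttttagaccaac

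The window of *Fabp1* held a DR1 with 1 mismatch on the opposite strand, AGGCCATAGGTCA, that starts 67 bases before the RefSeq start. A DR1 with at most 1 mismatch was found in 0.484% of 32851 promoters of the same length, and in 1 of the 7 genes. The window of *Cd36*, which lies inside the annotated gene, had a half-site on the opposite strand 228 bases before the start, and its closest DR1 had 2 mismatches. The half-site was present in 14.0% of all promoters and in 3 of the 7 genes, namely *Cd36*, *Fabp1* and *Pparg*. Both shares are per window and both counts per gene, so a gene with more than 1 window, such as *Pparg*, had more chances of a match. The closest DR1 of *Mogat1* had 2 mismatches and lay within annotated exon sequence, which is not printed, and that of *Fabp2* had 3. These matches are descriptions of the letters in a short window and show neither binding nor its absence.

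The HFD was accompanied by higher mRNA levels of most of the genes, and the size of the difference varied widely among them. Between control and ND-fed mice, 8 of the 10 passed as higher and 0 as lower, whereas 16.2% of all genes tested passed as higher and 19.1% as lower. Of the 8, *Mogat1*, *Cd36*, *Fabp4* and *Fabp2* were also past a log2 fold change of 1, which 2.25% of all genes were in this direction. The median log2 fold change of the 10 genes was 0.66, beside −0.04 for all genes. The 10 genes were chosen with earlier results of these data known, so the counts set beside all genes are descriptions. HYA-treated and control mice differed in 1 of the 10, *Mogat1*, which was lower in HYA-treated mice, and 1.23% of all genes passed as lower and 1.57% as higher. These shares stand for 310 genes, a number that was 651 without control mouse 2 and 28, 79, 87 and 60 without control mouse 1 or 3 or HYA-treated mouse 1 or 3. It was 0 without HYA-treated mouse 2 and in a fit of these 2 groups alone, so every call between HYA-treated and control mice given here, those of list genes and markers included, was lost in both. Between LA-treated and control mice none of the 10 passed, as was the case for all genes tested (0%).

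**Figure D1:**
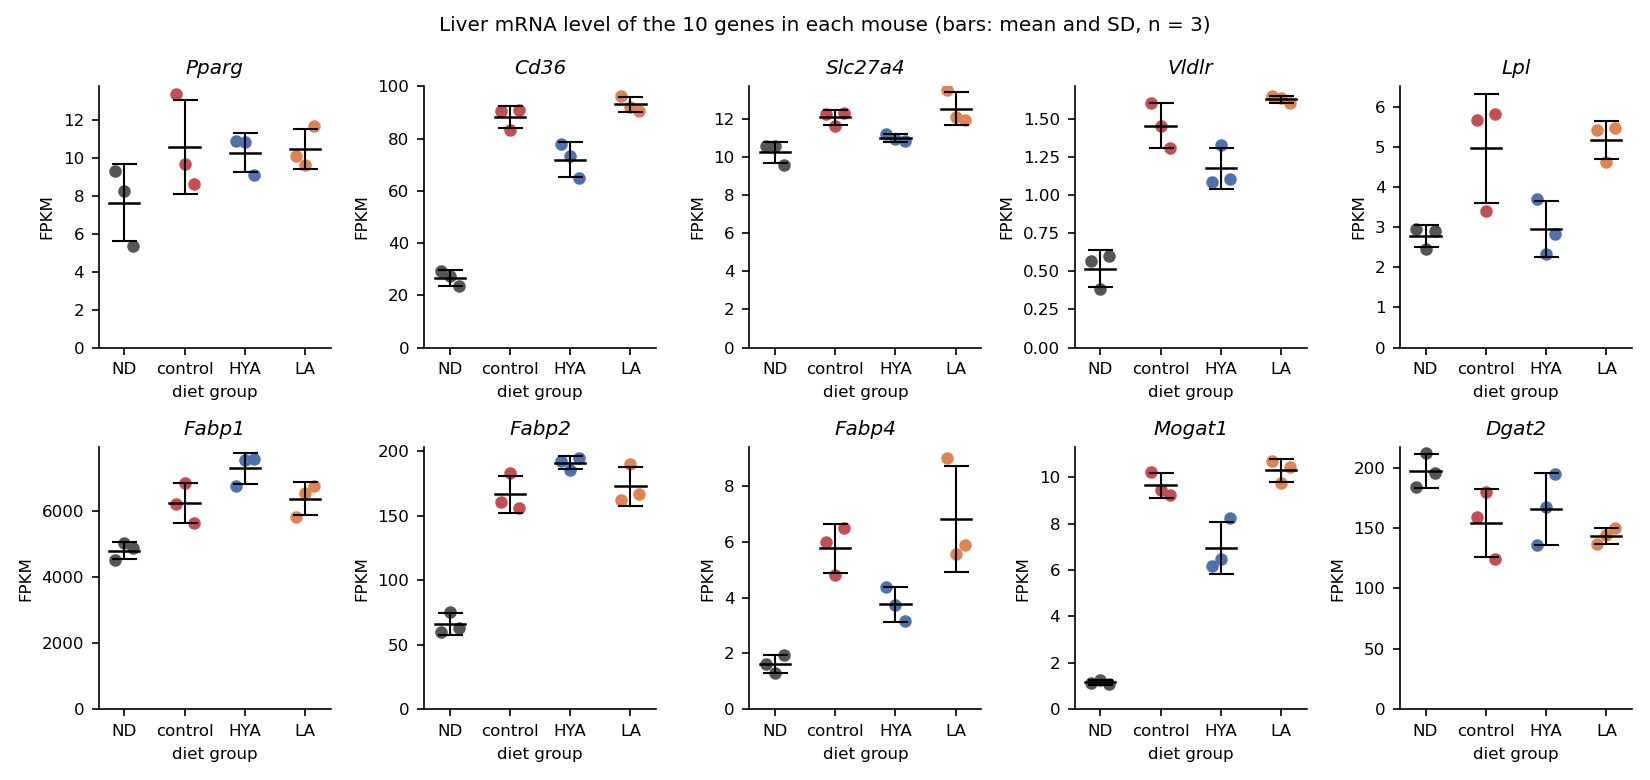
Liver mRNA level (FPKM, linear axes from 0) of each gene in each mouse, by diet group, with bars for the mean and SD of 3 mice. *Mogat1* lies at 1.07 to 1.25 FPKM in ND-fed mice and at 9.23 to 10.2 in control mice, with HYA-treated mice in between, whereas the groups of *Pparg* lie close together.

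*Pparg* (ENSMUSG00000000440, chromosome 6, 115360951 to 115490399), the receptor itself, was detected at a modest level in all groups. It measured 9.31, 8.25 and 5.37 FPKM in the 3 ND-fed mice, 13.4, 9.70 and 8.63 in control mice, 10.9, 10.8 and 9.08 in HYA-treated mice, and 10.1, 9.64 and 11.7 in LA-treated mice. The ranges of ND-fed and control mice overlapped, and the means of control, HYA-treated and LA-treated mice were 10.6, 10.3 and 10.5 FPKM. The log2 fold change between control and ND-fed mice was 0.43 (SE 0.18, 95% interval 0.02 to 0.83, adjusted p = 0.0927) and did not pass. It passed when values were rescaled to TPM (0.69, adjusted p = 0.0273) or to the total of fragments on genes (0.60, adjusted p = 0.0348). It also passed without ND-fed mouse 1 (0.57, adjusted p = 0.0452). The difference between HYA-treated and control mice was −0.02, with an interval from −0.43 to 0.38.

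*Cd36* (ENSMUSG00000002944, chromosome 5, 17781690 to 17888801) encodes the scavenger receptor that facilitates uptake of long-chain fatty acids at the plasma membrane. Its level was 29.4, 27.2 and 23.5 FPKM in ND-fed mice, 90.5, 83.3 and 91.1 in control mice, 78.0, 73.2 and 64.8 in HYA-treated mice, and 96.5, 92.1 and 90.8 in LA-treated mice. All HFD-fed mice lay far above the ND-fed mice, and the HYA-treated mice lay below every control and LA-treated mouse. *Cd36* rose 3.30-fold in mean FPKM from ND-fed to control mice (log2 fold change 1.69, SE 0.09, adjusted p = 6.32e-07). HYA-treated against control mice gave −0.29 (SE 0.09, unadjusted p = 0.00663, adjusted p = 0.102), which did not pass.

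*Slc27a4* (ENSMUSG00000059316, chromosome 2, 29802634 to 29817522) encodes FATP4, a fatty acid transport protein with acyl-CoA synthetase activity. It was measured at 10.6, 10.6 and 9.60 FPKM in ND-fed mice, 12.3, 11.6 and 12.3 in control mice, 11.2, 10.9 and 10.9 in HYA-treated mice, and 13.5, 12.1 and 12.0 in LA-treated mice. The groups were ordered as for *Cd36*, but within a narrow span. *Slc27a4* rose in control over ND-fed mice by 0.22 (SE 0.06, adjusted p = 0.0157) as deposited, by 0.46 on TPM and by 0.39 on the total of fragments on genes. On the deposited scale the call was lost without ND-fed mouse 3 (adjusted p = 0.0583) or control mouse 1 (adjusted p = 0.0527) and in a fit of these 2 groups alone (adjusted p = 0.0504).

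*Vldlr* (ENSMUSG00000024924, chromosome 19, 27216484 to 27254231) was the least abundant of the 10, with 0.571, 0.381 and 0.602 FPKM in ND-fed mice, 1.60, 1.46 and 1.31 in control mice, 1.09, 1.33 and 1.11 in HYA-treated mice, and 1.65, 1.63 and 1.60 in LA-treated mice. No ND-fed mouse reached the lowest HFD-fed mouse, whereas HYA-treated and control mice overlapped. The log2 fold change between control and ND-fed mice was 0.69 (SE 0.08, adjusted p = 0.000115), a value that understates the 2.81-fold ratio of mean FPKM because 1 was added to low values. On TPM the log2 fold change was 1.19.

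*Lpl* (ENSMUSG00000015568, chromosome 8, 68880491 to 68907448) encodes the lipase that releases fatty acids from circulating triglycerides, an enzyme that the adult liver normally makes little of. Its level was 2.96, 2.46 and 2.90 FPKM in ND-fed mice, 5.66, 3.40 and 5.81 in control mice, 3.71, 2.33 and 2.83 in HYA-treated mice, and 5.41, 4.62 and 5.46 in LA-treated mice. The HYA-treated mice spanned the ND-fed mice, and control mouse 2 lay apart from the other control mice and below HYA-treated mouse 1. *Lpl* rose from ND-fed to control mice (0.63, SE 0.17, adjusted p = 0.0140), a call that was lost without ND-fed mouse 2 (adjusted p = 0.0513) or control mouse 1 (adjusted p = 0.0597). HYA-treated against control mice gave −0.58 (SE 0.17, adjusted p = 0.0958), which did not pass. It passed without control mouse 2 (−0.78, adjusted p = 0.0107). HYA-treated against ND-fed mice gave 0.06, with an interval from −0.32 to 0.43.

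*Fabp1* (ENSMUSG00000054422, chromosome 6, 71199827 to 71205023) encodes the liver fatty acid binding protein, an abundant cytosolic protein of the hepatocyte. It had 4514, 5024 and 4872 FPKM in ND-fed mice, 6213, 6852 and 5649 in control mice, 6748, 7554 and 7581 in HYA-treated mice, and 5822, 6545 and 6766 in LA-treated mice. Every HFD-fed mouse exceeded the ND-fed mice, and the highest levels were those of HYA-treated mice, which overlapped with control mice. *Fabp1* rose 1.30-fold from ND-fed to control mice (log2 fold change 0.37, SE 0.09, adjusted p = 0.00943), and the log2 fold change was 0.61 on TPM and 0.56 on the total of fragments on genes. The call was lost without the filter on low values (adjusted p = 0.218). HYA-treated against control mice gave 0.23 (adjusted p = 0.210).

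*Fabp2* (ENSMUSG00000023057, chromosome 3, 122895072 to 122899506), the intestinal form of the binding protein, was measured at 59.5, 75.6 and 63.3 FPKM in ND-fed mice, 161, 183 and 156 in control mice, 193, 185 and 195 in HYA-treated mice, and 162, 189.8 and 167 in LA-treated mice. All HFD-fed mice lay more than 2-fold above the highest ND-fed mouse, and the HYA-treated mice lay just above the control mice. The rise from ND-fed to control mice was 2.52-fold (log2 fold change 1.32, SE 0.10, adjusted p = 5.69e-06). The 6 enterocyte markers examined all lay below the minimum for testing and summed to at most 0.364 FPKM in any mouse.

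*Fabp4* (ENSMUSG00000062515, chromosome 3, 10204088 to 10208576), the binding protein of adipocytes and macrophages, had 1.64, 1.30 and 1.95 FPKM in ND-fed mice, 5.99, 4.82 and 6.52 in control mice, 4.40, 3.75 and 3.15 in HYA-treated mice, and 9.01, 5.57 and 5.89 in LA-treated mice. The 3 HYA-treated mice lay above the ND-fed and below the control mice with no overlap, and LA-treated mouse 1 had the highest level. *Fabp4* rose 3.55-fold in mean FPKM from ND-fed to control mice (log2 fold change 1.36, SE 0.17, adjusted p = 0.000162). HYA-treated against control mice gave −0.51 (SE 0.17, adjusted p = 0.134).

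*Mogat1* (ENSMUSG00000012187, chromosome 1, 78510991 to 78538173) encodes a monoacylglycerol acyltransferase, which makes diacylglycerol from monoacylglycerol and is scarce in normal liver. Its level was 1.13, 1.25 and 1.07 FPKM in ND-fed mice, 10.2, 9.46 and 9.23 in control mice, 6.16, 6.48 and 8.23 in HYA-treated mice, and 10.7, 9.75 and 10.4 in LA-treated mice. Each HYA-treated mouse lay below each control and LA-treated mouse, and all were well above the ND-fed mice. *Mogat1* rose 8.37-fold in mean FPKM from ND-fed to control mice (log2 fold change 2.31, SE 0.09, adjusted p = 9.37e-08), the largest difference among the 10 genes. It fell in HYA-treated against control mice (−0.43, SE 0.09, 95% interval −0.63 to −0.23, adjusted p = 0.0370), to 0.721 of the control mean. This call was lost when control mouse 1 (adjusted p = 0.157) or 3 (0.0766) or HYA-treated mouse 1 (0.0874) or 2 (0.161) was left out, and in a fit of these 2 groups alone (0.164). *Mogat1* shares 200 exon bases with *BC035947* on the opposite strand, and the library kit named in the labels does not keep the strand, so that reads there cannot be told apart. *BC035947* was listed at a mean of 0.00560 FPKM in ND-fed mice and 0.643 in control mice, and with HYA and LA at 0.283 and 0.498.

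*Dgat2* (ENSMUSG00000030747, chromosome 7, 99153658 to 99182719), which encodes the acyltransferase that completes triglyceride synthesis from diacylglycerol, did not share this pattern. It had 184, 212 and 195 FPKM in ND-fed mice, 159, 179 and 124 in control mice, 136, 168 and 195 in HYA-treated mice, and 137, 144 and 150.1 in LA-treated mice. The control and LA-treated mice lay below the ND-fed mice, and the HYA-treated mice spread over nearly the whole range. The log2 fold change between control and ND-fed mice was −0.37 (SE 0.14, adjusted p = 0.0721) as deposited, −0.13 on TPM (adjusted p = 0.494) and −0.18 on the total of fragments on genes (adjusted p = 0.351). It passed only without control mouse 2 among the mice left out in turn (−0.48, adjusted p = 0.0315). In LA-treated against ND-fed mice *Dgat2* fell by 0.45 on the log2 scale (SE 0.14, adjusted p = 0.0354). This call was lost on TPM (−0.23, adjusted p = 0.235), on the total of fragments on genes (−0.28, adjusted p = 0.153), and without ND-fed mouse 2 or 3 or any 1 of the LA-treated mice (adjusted p from 0.0609 to 0.110).

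**Figure D2:**
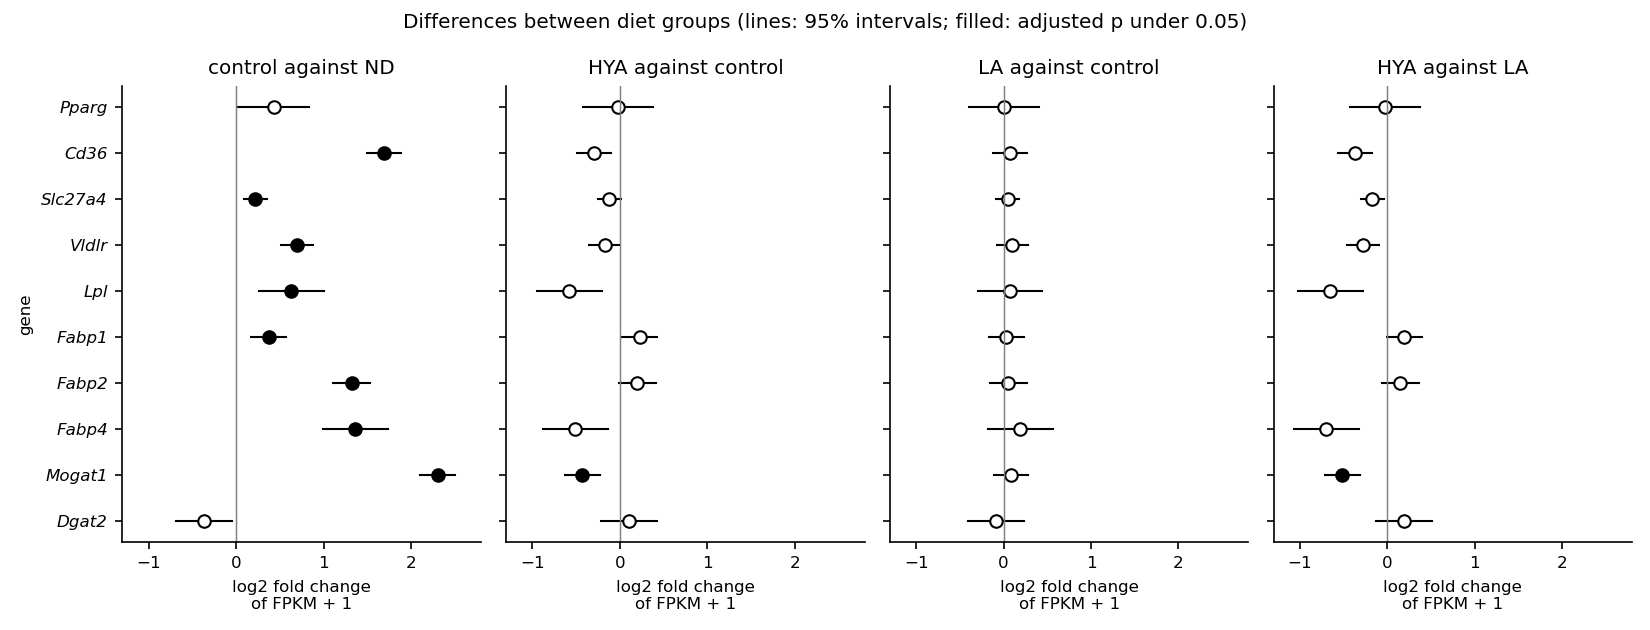
Log2 fold change of FPKM + 1 of each gene in 4 comparisons, with lines for 95% intervals and filled points for an adjusted p under 0.05. Between control and ND-fed mice 8 points are filled, between HYA-treated and control mice and between HYA-treated and LA-treated mice that of *Mogat1* alone, and between LA-treated and control mice none.

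The question whether HYA differed from its parent fatty acid was addressed by comparing the 3 HYA-treated with the 3 LA-treated mice, the 1 pair of compounds, which received equal doses for equal times. *Mogat1* was lower with HYA (−0.51, SE 0.09, 95% interval −0.71 to −0.32, adjusted p = 0.0380), and it was the 1 member that passed, whereas 0.253% of all genes passed as lower and 0.235% as higher. The call was lost without HYA-treated mouse 1 (adjusted p = 0.0855), HYA-treated mouse 2 (0.186), or LA-treated mouse 1 (0.219), 2 (0.0979) or 3 (0.0934). For 6 of the 10 genes (*Cd36*, *Slc27a4*, *Vldlr*, *Lpl*, *Fabp4* and *Mogat1*) all HYA-treated mice lay below all LA-treated mice, as did 10.4% of all genes tested. The values that did not pass were −0.70 for *Fabp4* (adjusted p = 0.0783), −0.65 for *Lpl* (0.0892), −0.37 for *Cd36* (0.0728), −0.28 for *Vldlr* (0.121) and −0.17 for *Slc27a4* (0.172). For *Pparg* the difference was −0.03, with an interval from −0.43 to 0.38. The intervals of *Fabp1* (−0.01 to 0.40), *Fabp2* (−0.06 to 0.36) and *Dgat2* (−0.13 to 0.51) also included 0.

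Between HYA-treated and control mice, ranges did not overlap for *Cd36*, *Slc27a4*, *Fabp4* and *Mogat1*, with HYA-treated mice lower, and for *Fabp2*, with HYA-treated mice higher. Among all genes, 8.87% were separated in this way as lower and 12.7% as higher. An unadjusted p under 0.05 was obtained for 5 of the 10 genes and for 18.5% of all genes. Between LA-treated and control mice, an unadjusted p under 0.05 was obtained for 0 of the 10 genes, beside 294 of all genes (2.65%), voom on recovered fragments also called 0 genes, and the 95% intervals of the members all lay between −0.41 and 0.56. Compared with ND-fed mice, 6 members passed as higher in HYA-treated mice (8.72% of all genes did) and 0 as lower (7.85%), and with LA 8 passed as higher (14.4%) and 1, *Dgat2*, as lower (16.6%). The comparisons of the HFD groups with ND share the ND-fed mice, so their values are set side by side. For *Mogat1* the log2 fold changes over ND were 2.31 for control, 1.88 for HYA and 2.39 for LA, and for *Cd36* they were 1.69, 1.40 and 1.77. For *Fabp4* they were 1.36, 0.86 and 1.55, whereas for *Fabp2* they were 1.32, 1.52 and 1.38.

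Levels can be compared between genes per length. *Fabp1* made up 98.5% ± 0.104 (SD, n = 3) of the summed FPKM of the 9 *Fabp* genes in ND-fed mice and 97.1% ± 0.0959 in control mice, and *Fabp2* 1.35% ± 0.111 and 2.60% ± 0.0844. *Fabp4* remained at or below 0.150% in every mouse. Among the 6 *Slc27* genes *Slc27a4* took 1.25% ± 0.132 for ND, 2.01% ± 0.283 for control, 1.39% ± 0.0656 for HYA and 2.07% ± 0.164 for LA, the rest being mostly *Slc27a2* and *Slc27a5*. Within *Dgat1*, *Dgat2*, *Mogat1* and *Mogat2* the share of *Mogat1* was 0.559% ± 0.0326, 5.72% ± 0.899, 3.88% ± 0.279 and 6.38% ± 0.476 in the same order, and *Dgat2* held at least 88.2% in every mouse. The deposited lengths cover all annotated exons. For *Fabp4* this length was 4489 bases against 896 for the principal transcript, for *Lpl* 10478 against 4115 and for *Pparg* 2953 against 1767, so the FPKM of these genes would be 5.01, 2.55 and 1.67 times as high on the shorter length.

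Other genes of the pathway were examined in 5 lists of 90 genes, of which 79 were tested. Between control and ND-fed mice 25 of them rose (31.6%, beside 16.2% of all genes) and 13 fell (16.5%, beside 19.1%), with a median log2 fold change of 0.14. On TPM the split was 43 and 6, and that of all genes moved likewise, to 32.5% and 5.70%. In HYA-treated against control mice 5 rose (6.33%, beside 1.57% of all genes) and 1 fell (1.27%, beside 1.23%), with a median of 0.06, and TPM gave 2 and 3. The 5 rises were lost without control mouse 1 or 3, without any 1 of the HYA-treated mice, without the filter and in a fit of these 2 groups alone, and the 1 fall without control mouse 1 or HYA-treated mouse 2 or 3 and in the same fit. In LA-treated against control mice and HYA-treated against LA-treated mice 0 passed. At an unadjusted p under 0.05 there were 1 and 22 genes in these last comparisons, beside 2.65% and 17.2% of all genes, and voom on recovered fragments called 0 in the first and 4 as higher and 1 as lower in the second.

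Of the 17 further textbook targets of PPARγ tested, 10 rose from ND-fed to control mice, 0 fell and 7 did not pass (median 0.67). Of all genes, 16.2% rose and 19.1% fell. *Cidec*, which joins small lipid droplets into larger ones, measured 8.55 ± 1.9 FPKM in ND-fed and 85.8 ± 16 in control mice (SD, n = 3) and rose by 3.19 on the log2 scale (adjusted p = 6.32e-07). *Cidea*, of the same family, rose by a log2 fold change of 3.30, *Ucp2* by 1.49 and the droplet coat gene *Plin2* by 1.32. *Ucp2*, a mitochondrial carrier, was the 1 target that fell in HYA-treated against control mice (−0.55, adjusted p = 0.0205). *Cidec* gave −0.52 (adjusted p = 0.120) and *Plin2* −0.24 (adjusted p = 0.0602).

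In the list for fatty acid uptake and binding, 4 of 11 tested genes rose from ND-fed to control mice and 2 fell, beside 16.2% and 19.1% of all genes. The acyl-CoA synthetase genes moved apart, since *Acsl5* (0.67) and *Acsl3* (0.81) rose whereas *Acsl1* fell by 0.68 on the log2 scale (adjusted p = 0.000372). *Slc27a5*, which encodes the bile acid-CoA and fatty acyl-CoA synthetase FATP5, measured 441 ± 11 FPKM in ND-fed and 259 ± 38 in control mice and fell by 0.77 on the log2 scale (adjusted p = 0.000129). The 3 genes that rose in HYA-treated against control mice were *Slc27a5* (0.44, adjusted p = 0.0389), *Acsl1* (0.45, 0.0407) and *Slc27a2* (0.37, 0.0487).

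Among regulators of LPL and receptors for lipoproteins, 3 of 14 rose from ND-fed to control mice and 5 fell, beside 16.2% and 19.1% of all genes. Among those with the lowest p were *Lrp1*, a receptor for lipoprotein remnants (−0.59, adjusted p = 5.65e-05), hepatic lipase *Lipc* (−0.84, 7.05e-05) and the HDL receptor *Scarb1* (−0.30, 0.00184). *Lipc* (0.49, adjusted p = 0.0292) and *Lrp1* (0.30, adjusted p = 0.0355) rose in HYA-treated against control mice. Among those that rose with the HFD, *Gpihbp1* encodes the endothelial anchor of LPL and *Apoa5* an activator of LPL.

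In glycerolipid synthesis, 7 of 17 genes rose from ND-fed to control mice and 3 fell, beside 16.2% and 19.1% of all genes. The rises included *Gpam*, the mitochondrial enzyme of the initial acylation of glycerol phosphate (82.9 ± 14 and 180.4 ± 28 FPKM, a rise of 1.11 on the log2 scale, adjusted p = 0.000151), *Gpat3* (0.99), the lysophosphatidic acid acyltransferase gene *Agpat3* (0.42) and glycerol kinase *Gk* (0.58). None of the 17 passed in HYA-treated against control mice, where *Gpam* gave 0.05 (adjusted p = 0.897). Of the 20 partners and co-regulators of PPARγ, 1 rose from ND-fed to control mice, *Cebpd* (0.87, adjusted p = 0.00778), and 3 fell slightly, among them the coactivator genes *Med1* (−0.19) and *Ncoa2* (−0.21). The same shares of all genes stand beside these counts.

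**Figure D3:**
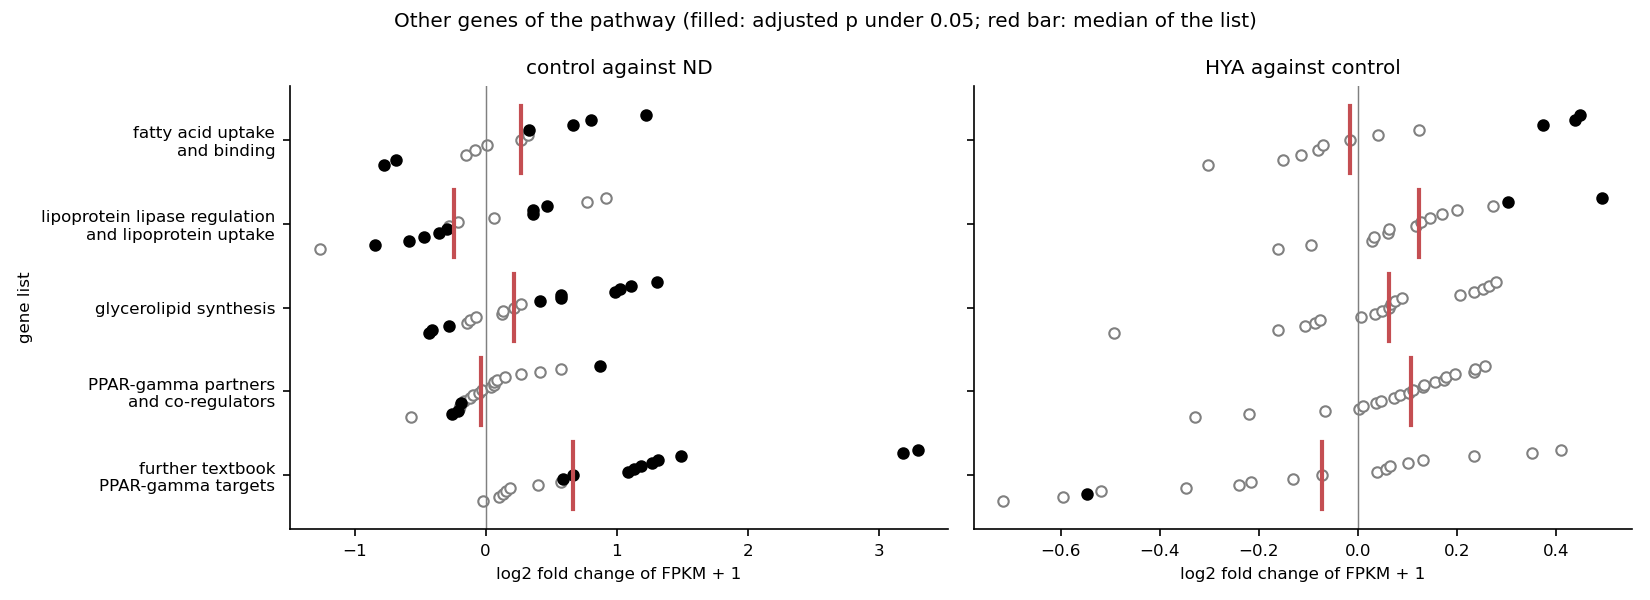
Log2 fold change of FPKM + 1 of each tested gene of the 5 lists, between control and ND-fed mice and between HYA-treated and control mice, with filled points for an adjusted p under 0.05 and a bar for the median of each list. The horizontal axes differ between the panels. The targets have 10 filled points above 0 and none below in the first panel, and 1 filled point below 0 in the second.

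Markers of other cell types moved with several of these genes. Beside the counts of markers below, 16.2% of all genes rose and 19.1% fell from ND-fed to control mice. In HYA-treated against control mice 1.57% rose and 1.23% fell. The summed level of 7 recruited macrophage markers, 4 of which were tested, was 9.88 to 11.6 FPKM for ND, 27.7 to 41.1 for control, 14.9 to 21.7 for HYA and 29.6 to 35.1 for LA. All 4 rose from ND-fed to control mice, and *Cd9*, *Gpnmb* and *Itgax* fell in HYA-treated against control mice, whereas *Lgals3* did not pass there. None of the 7 was at 0 in every mouse, and the defining marker *Trem2* stayed below the minimum, with means of 0.0816, 0.979, 0.478 and 0.934 FPKM in the 4 groups in this order. The largest parts of the sum were *Cd9* (7.32 to 17.8 FPKM over the 12 mice) and *Lgals3* (1.86 to 17.3). *Gpnmb*, *Itgax*, *Ccr2* and *Itgam* reached at most 2.65, 2.31, 1.71 and 0.336 FPKM. The sum moved with *Lpl*, *Fabp4*, *Cd36* and *Mogat1*, and the part of macrophages in their differences was not tested. *Lpl*, *Fabp4* and *Cd36* are known to be expressed in macrophages. The sum of 9 Kupffer cell and macrophage markers was 204 to 316, 296 to 307, 215 to 300.4 and 293 to 309 FPKM in the 4 groups, with 3 genes that rose and 2 that fell in control against ND-fed mice and 0 that passed with HYA. The 7 stellate cell markers summed to 37.7 to 49.4, 73.8 to 92.5, 62.0 to 73.9 and 80.3 to 95.3 FPKM, and the 7 endothelial markers to 59.4 to 74.6, 83.3 to 84.4, 78.7 to 85.3 and 80.4 to 85.8. Of the stellate cell markers, 4 rose from ND-fed to control mice and 0 fell. *Col1a1*, 1 of these 4 (2.55), was the 1 stellate cell marker that fell in HYA-treated against control mice (−1.12). The hepatocyte markers ran the other way, at 42137 to 43715, 27791 to 32181, 36196 to 38117 and 30609 to 31388 FPKM, and 5 of the 7 fell from ND-fed to control mice. The 6 adipocyte markers summed to 8.02 to 10.6 FPKM in ND-fed mice and to at most 7.35 in the HFD-fed mice. The 5 cholangiocyte markers, 2 of which were tested, summed to 3.19 to 4.26, 3.79 to 6.42, 2.34 to 3.51 and 4.01 to 6.61 FPKM in the 4 groups. Of these, *Epcam* rose from ND-fed to control mice (0.81) and fell in HYA-treated against control mice (−0.84). *Sox9*, the other marker tested, passed in neither comparison, at 1.55 to 2.34 FPKM for ND, 1.23 to 2.43 for control and 0.832 to 1.53 for HYA. Sums of the 6 lymphocyte markers reached at most 3.58 FPKM.

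**Figure D4:**
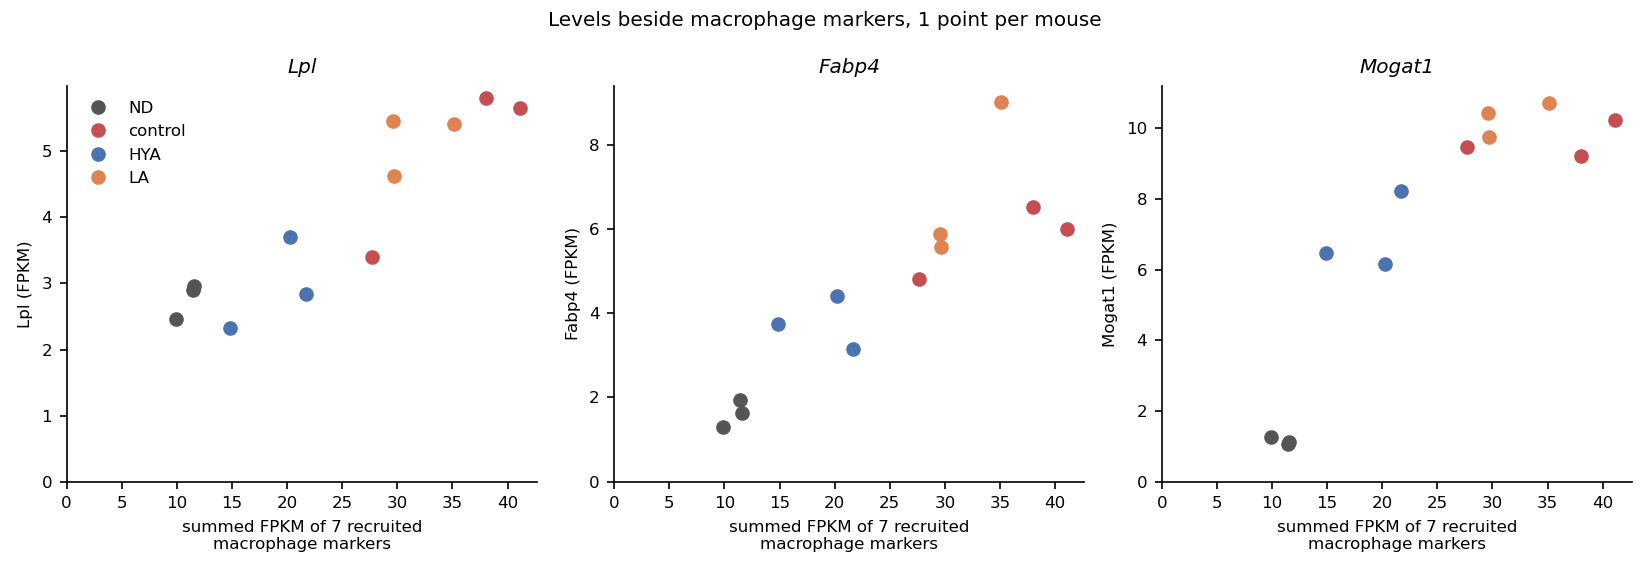
Level of *Lpl*, *Fabp4* and *Mogat1* (FPKM) against the summed FPKM of 7 recruited macrophage markers, 1 point per mouse, colored by group. The largest parts of the sum are *Cd9* and *Lgals3*. HYA-treated mice lie at marker sums of 14.9 to 21.7, between the ND-fed mice and the control and LA-treated mice, and control mouse 2, with the lowest *Lpl* of its group, has the lowest sum of its group (27.7).

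For *Pparg*, *Cd36*, *Mogat1* and *Lpl* the 3 tested genes with the most similar pattern were identified by Pearson's r of log2(FPKM + 1) over the 12 mice. Given after it is r with the group means subtracted. *Pparg* was most similar to *Inhbe* (0.91, 0.86 within groups), *Ankmy2* (0.89, 0.86) and *Klf16* (0.88, 0.88). *Lpl* was most similar to *Tgm2* (0.97, 0.89), *Samd4* (0.96, 0.92) and *Icam1* (0.96, 0.92). *Cd36* was most similar to *H2-Q1* (0.99, 0.70), *Tbc1d31* (0.99, 0.72) and *Plin2* (0.98, 0.01), and *Mogat1* to *Enc1* (0.99, 0.28), *Cidec* (0.99, 0.81) and *Plin2* (0.99, 0.22). The genes were chosen by r over the same 12 libraries, which also sets in part the value with group means subtracted, and both are descriptions.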

How the data were processed

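Liver RNA of 12 male C57BL/6J mice in 4 diet groups of 3 was sequenced with paired ends (Illumina HiSeq). The submitters' processing notes name fastp, HISAT2 2.0.5, featureCounts 1.5.0-p3 and GRCm38. The authors deposited FPKM per gene and mouse. The annotation release, the strand setting and the handling of multiply mapped reads are not given in the sources used here. The methods name TPM, but the columns summed to 342146 to 429286, so the values were taken as FPKM. The values were multiplied by gene length and by a scaling total read for each mouse from the smallest step of its values. Of the low nonzero values, 100% were then whole numbers of fragments (tolerance 0.01 fragment). Larger values were rounded to whole fragments without this check. The scaling total, which differs from the fragments on genes (17169064 to 25220880 per mouse), puts 3 fragments on a 2 kb gene at 0.0607 to 0.0944 FPKM, a floor for counting error only.

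log2(FPKM + 1) was fitted, for genes that averaged 1 FPKM or more, with limma 3.58.1 in R 4.3.3 (empirical Bayes with trend, two-sided, Benjamini-Hochberg over 11083 genes, all 12 mice, no block), for 6 comparisons. The script was tested on simulated data. The 10 genes, the lists and the rules were chosen with earlier results of these data known. Named besides the 10 are, per pathway list, the 4 genes with the lowest p between control and ND, list genes passing between HFD groups (at most 4 per list and comparison), the 3 genes most similar to *Pparg*, *Cd36*, *Mogat1* and *Lpl* (clone names left out), and markers that moved with a member. *Gpihbp1*, *Apoa5* and *BC035947* fall outside this rule and were chosen after their values were seen, and some genes within it are not reported here. The marker lists were for adipocytes, Kupffer cells and macrophages, recruited macrophages, endothelial, stellate, hepatocyte, cholangiocyte, enterocyte and lymphocyte cells. Alternatives were a pseudocount of 0.1, no filter, a filter of 10 mean fragments, median-ratio size factors, TPM, voom on recovered fragments, a replicate block, the 2 groups compared alone, an added threshold on fold change, and each mouse left out. Scaling to the total of fragments on genes was added after the data were seen.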

Additional observations from a re-analysis of the deposited data

Results flagged for a closer look

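The difference of *Mogat1* between HYA-treated and LA-treated mice stood out because the effects of the 2 compounds, each set against the same HFD-fed control mice, differed by a direct test of HYA against LA. The log2 fold change was −0.51 (limma, adjusted p = 0.0380), and the 3 HYA-treated mice were all below the 3 LA-treated mice. The call was lost without HYA-treated mouse 1 or 2 or any 1 of the LA-treated mice and held without HYA-treated mouse 3. The 200 exon bases shared with *BC035947* were counted with the strand setting unknown, and their part in the difference was not tested.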

How the results depend on the processing

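The cause of a change is not tested unless the setting itself shows it. An added log2 fold change above 1 left 4, 3 and 4 members higher in control, HYA and LA against ND and 0 lower in HYA against control, HYA against LA and LA against ND. It left 12, 7 and 8 pathway list genes higher against ND, and 0 lower there or in either direction in HYA against control. Without the filter, which tests more genes, 0 members passed in HYA against control, HYA against LA and, as lower, LA against ND (*Mogat1* adjusted p = 0.0754 and 0.0879), and list genes numbered 0 higher and 2 lower in HYA against control and 2 lower in HYA against ND. Fits of the 2 groups alone, with fewer mice, called 0 members lower in HYA against control and HYA against LA, and 0 list genes either way in HYA against control and 3 higher in HYA against LA. On TPM, list genes numbered 43 higher and 6 lower in control against ND, 37 and 5 in LA against ND, 2 and 3 in HYA against control, 2 lower in HYA against LA and 1 lower in HYA against ND. On fragment totals there were 6, 5 and 3 lower in control, LA and HYA against ND and 3 each way in HYA against control. On either, 0 members were lower in LA against ND. Among all genes, higher calls were 45.9% in control against ND (85.1% on TPM, 79.0% on fragment totals) and 56.1% in HYA against control (17.7% and 24.8%). A filter of 10 mean fragments and voom each gave 2 list genes lower in HYA against control. Voom gave 2 members lower in HYA against LA (with *Fabp4*, adjusted p = 0.0478) and 4 list genes higher and 1 lower.

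Neither the paper nor the labels say that replicate numbers pair the mice. Of 18 same-number pairs, 3 had deviations correlated above 0.1 (−0.396 to 0.294), and the 36 other pairs spanned −0.375 to 0.393. With 3 mice per group these values cannot exclude a shared factor. With a replicate block, 2 members were lower in HYA against control (*Lpl* added, adjusted p = 0.0244) and 4 in HYA against LA (*Cd36*, *Lpl* and *Fabp4* added), and list genes were 2 lower in HYA against control and 2 higher and 1 lower in HYA against LA. Calls among all genes also rose with the block, from 310 to 449 in HYA against control and from 54 to 258 in HYA against LA.

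With each mouse left out in turn, members higher against ND numbered 6 to 9 for control, and members lower 0 to 1 for control, 0 to 2 in HYA against control, 0 to 1 in HYA against LA and 0 to 1 in LA against ND. List genes were 0 to 6 higher and 0 to 2 lower in HYA against control and 2 to 4 lower in HYA against ND. Log2 fold changes near 0 changed sign. In HYA against control *Pparg* ranged from −0.14 to 0.15 and *Dgat2* from −0.043 to 0.24 (TPM −0.019). In LA against control *Pparg* ranged from −0.12 to 0.17 (fragment totals −0.0047), *Lpl* from −0.13 to 0.18, *Fabp1* from −0.036 to 0.10, *Fabp2* from −0.017 to 0.12, *Fabp4* from −0.0021 to 0.30, *Dgat2* from −0.24 to 0.028 and *Slc27a4* from −0.0046 to 0.078. *Pparg* in HYA against LA ranged from −0.079 to 0.052 and *Lpl* in HYA against ND from −0.077 to 0.17. No reversed value passed. Depth limits *Vldlr* and *Mogat1* most, with 61 and 30 fragments in the lowest mouse.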
